A study of Mus musculus with 3 samples.

Results

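The array labelled Rbpj-/- CD4 was compared directly with the array labelled Dll1-/- CD4, as a log2 difference per gene in which a positive value means a higher level in the Rbpj-/- cells. These were 2 of the 3 arrays of the series, and 11792 of the 20882 genes that the array's probes could be matched to were measured on both. RNA came from CD4+ T cells 2 days after stimulation, from female C57BL/6 mice aged 8 weeks, and was hybridised as Cy3-labelled cRNA to 1-colour Agilent arrays. The mouse groups were wild type (WT), Dll1-/- (Dll1 KO) and Rbpj-/- (Rbpj KO), which the labels describe alike in strain, sex, age, stimulation and time. The labels used here do not give the stimulus, how either allele was made, which cells carry it, how the CD4 cells were isolated, or how many mice gave each RNA. Each group was 1 array, so no difference below has a replicate check, a standard error or a p-value, and each describes 2 arrays and not 2 genotypes.

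Notch receptors are cleaved when a neighbouring cell presents a ligand of the Delta-like or Jagged family, and the released intracellular part enters the nucleus. There it binds the DNA-binding protein Rbpj and recruits Mastermind coactivators, while Rbpj without Notch sits with corepressors at many of the same genes. Rbpj therefore lies downstream of every Notch receptor, whereas Dll1 is one of several ligands, and a T cell that lacks Dll1 can still receive signals from other ligands. In CD4 T cells Notch signals are known to bear on helper cell differentiation, on cytokine genes such as Il4 and Ifng, and on survival after activation. The comparison of the knockouts with each other asks how far loss of the ligand and loss of the nuclear mediator left the stimulated cells alike.

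A level is the log2 signal of a gene minus the 75th percentile of its array, so that 0 is the 75th percentile and 1 unit is 2-fold. A gene was measured where at least 1 of its probes was well above background on both arrays. Of the 11792 genes, 5314 (45.1%) lay above 0 in the difference Rbpj KO minus Dll1 KO and 6478 (54.9%) below, with a median of -0.03 and quartiles of -0.20 and 0.15. Levels on the 2 arrays correlated across genes at r = 0.986, which describes genes and not replicates. In all, 465 genes (3.94%) were at least 2-fold apart, of which 170 (1.44%) were higher and 295 (2.5%) lower in the Rbpj KO. The share within 1.5-fold was 88.9%, and a difference of 4-fold or more was reached by 21 genes on the higher side and 11 on the lower. Among the 3931 genes with the highest mean level, 28 were at least 2-fold higher and 98 lower, whereas among the 3931 with the lowest the counts were 116 and 115. For technical scale, the difference varied between repeated spots of 1 probe with a median SD of 0.08 log2 (95th percentile 0.29, 248 probes). Between different probes of 1 gene the median SD was 0.13 (95th percentile 0.57, 2902 genes). Other scalings moved all genes together. Scaling to the spike-in controls lowered the all-gene median to -0.45 and gave 61 genes higher and 716 lower, and median scaling lowered it to -0.15 and gave 128 and 377. Directions below are therefore relative to the bulk of genes on the array, and sign changes of list medians under these scalings are given with each list.

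**Figure D1:**
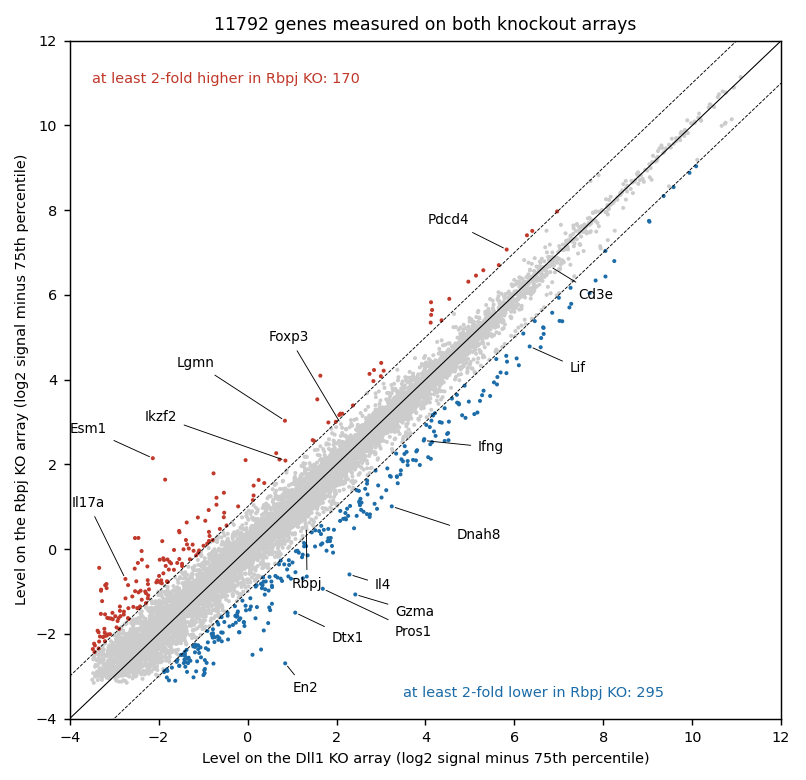
Levels of the 11792 genes on the Dll1 KO array (horizontal) and the Rbpj KO array (vertical), both as log2 signal minus the array's 75th percentile. The solid line marks equal levels and the dashed lines a 2-fold difference; the 170 genes above the upper line are red and the 295 below the lower line are blue, and the blue genes reach further into high levels than the red ones.

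The targeted genes were examined first. Rbpj was read by 2 probes, whose processed signals were 233 and 647 on the Dll1 KO array and 133 and 316 on the Rbpj KO array, with 212 and 627 on the WT array as a reference. Both probes were lowest on the Rbpj KO array, and the gene difference was -0.79 (1.73-fold lower). The probe for Dll1 failed the background test on all 3 arrays, with signals of 3.60 on the Dll1 KO, 4.06 on the Rbpj KO and 4.51 on the WT. Whether either probe set overlaps the deleted sequence is not stated in the sources used here, and their signals therefore check neither label. The labelled cell type was checked by T cell genes, which were well above background on both arrays. Cd3e, part of the antigen receptor complex, had levels of 6.80 in the Dll1 KO against 6.68 in the Rbpj KO, and Cd4 had 1.89 and 2.31 over 2 probes. Of 11 measured CD4 T cell markers, 9 lay above 0 and none was 2-fold apart. Their median was 0.21, which became -0.20 with spike-in scaling. Cd8a, the CD8 coreceptor, had 2 probes. The one measured on both arrays had levels of -0.16 in the Dll1 KO against -1.63 in the Rbpj KO, a difference of -1.47 (-0.83 after normexp and quantile normalization, under 2-fold).

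Components of the Notch pathway itself lay on both sides of 0. Of 38 genes on the array for receptors, ligands, processing enzymes and Rbpj cofactors, 30 were measured. Of these, 16 lay above 0 and 14 below, with a median of 0.04 (-0.37 with spike-in scaling and -0.08 with median scaling). In 3 of the 30 (10%, against 3.94% of all genes) the difference reached 2-fold. Among the receptors, Notch1 had levels of 2.74 in the Dll1 KO against 2.61 in the Rbpj KO, and Notch2 had 1.58 and 1.35, so both differed by less than 1.5-fold. The ligand Dll4 had -0.78 and -1.89, a difference of -1.11 (-0.55 after normexp), and Jag2 differed by -0.18. Of the enzymes that modify or cleave Notch and its ligands, Adam10 differed by -0.36, Adam17 by 0.22, Aph1a by -0.17, Psen2 by 0.04, Psenen by 0.09, Pofut1 by -0.21, Lfng by 0.00, Mfng by 0.33 and Rfng by -0.19. The ligand-ubiquitinating enzymes Mib1 and Mib2 differed by 0.15 and 0.41. Rbpjl, a paralog of Rbpj best known from the pancreas, had levels of 3.87 in the Dll1 KO against 1.98 in the Rbpj KO, a difference of -1.89 by 1 probe, with 3.32 in the WT. Neurl3, a Neuralized-family ubiquitin ligase, had -1.99 and -0.63, a difference of 1.36 (0.65 after normexp). The Mastermind coactivators Maml1, Maml2 and Maml3 differed by -0.01, 0.13 and 0.55, and the corepressors Spen, L3mbtl3 and Kdm5a by 0.07, 0.48 and 0.35. Snw1 differed by -0.13, Numb by 0.09, Numbl by 0.12, Itch by 0.05 and the Notch-degrading ligase subunit Fbxw7 by -0.34.

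Genes known as targets of Notch and Rbpj were lower in the Rbpj KO more often than not. Of 22 on the array, 14 were measured, 10 lay below 0 and 4 above, and 5 were at least 2-fold lower (35.7%, against 2.5% of all genes at least 2-fold lower), with a median of -0.36. Dtx1, a ubiquitin ligase of the Deltex family and a classical Notch target in T cells, had levels of 1.07 in the Dll1 KO against -1.50 in the Rbpj KO, a difference of -2.57 (5.95-fold, and 3.21-fold after normexp). Its WT level was 1.09, so the Rbpj KO array alone was low. Il4, the cytokine of type 2 helper cells, had 2.29 and -0.60, a difference of -2.89 (7.41-fold, and 4.78-fold after normexp), with 2.04 in the WT. Ifng, the cytokine of type 1 helper cells, had 3.96 and 2.56, a difference of -1.40, with 3.85 in the WT. Bcl2, which blocks mitochondrial cell death, had 4.10 and 2.88, a difference of -1.22, with 4.17 in the WT. For each of these genes the Dll1 KO and WT levels lay close together and the Rbpj KO level below both. The cytotoxic protease gene Gzmb had 2.46 and 1.39, a difference of -1.07 (-0.92 after normexp), with 1.95 in the WT. The other measured members were closer. Gata3, the type 2 lineage factor, differed by -0.51, Myc by -0.49, Il2ra by -0.23, Hes6 by -0.13, Prf1 by -0.12, Bcl2a1d by 0.10, Hes5 by 0.26, Dtx4 by 0.57 and Tcf7 by 0.58. The list mixes direct targets named in T cells with effector genes and shares Il4, Ifng, Gzmb and Bcl2 with lists below.

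Several T cell cytokines were lower in the Rbpj KO than in the Dll1 KO. Of 30 cytokine genes on the array, 21 were measured, 14 lay below 0 and 7 above, 6 of those below and 1 of those above differed by 2-fold or more (2.5% and 1.44% of all genes did), and the median was -0.28. Besides Il4 and Ifng, Csf2 (GM-CSF) had levels of 0.51 in the Dll1 KO against -1.44 in the Rbpj KO, a difference of -1.95. Il2, the T cell growth factor, had 1.87 and 0.26, a difference of -1.61. Lif, a cytokine of the IL-6 family, had 6.34 and 4.78, a difference of -1.56. Csf1, the macrophage growth factor, had -0.22 and -1.47, a difference of -1.25 over 3 probes that ranged from -1.44 to -1.13, although it was -0.67 after normexp. The Rbpj KO was the lowest of the 3 arrays for each, since the WT levels were -0.16 for Csf2, 1.45 for Il2, 6.00 for Lif and -0.32 for Csf1. Il3 was measured on the Dll1 KO array only and was at least 6.56-fold lower on the other array. That bound sets the bright array's level against the dim array's lowest signal among probes well above background. Within the cytokine list, 3 genes were at least 2-fold lower by such bounds and none was higher. The exception was Il17a, the cytokine of type 17 helper cells, which had -2.75 and -0.70, a difference of 2.04 that was 0.89 after normexp. Its level in the WT was -2.61. Lta differed by -0.87, Tnf by -0.40, Il21 by -0.49 and Il10 by 0.41.

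Chemokines showed the lowest median of the pathway lists. All 11 measured of 17 on the array lay below 0 (54.9% of all genes did), 6 were at least 2-fold lower (2.5% of all genes were) and the median was -1.21. Ccl17 had levels of 0.49 in the Dll1 KO against -1.38 in the Rbpj KO, and Ccl9 had -0.44 and -2.13. Cxcl1, which attracts neutrophils, had 1.24 and -0.13. Ccl4 and Ccl3, inflammatory chemokines made by activated T cells, had 4.75 and 3.42 and 3.14 and 1.90, respectively, and the interferon-inducible Cxcl10 had 1.27 and 0.06. In these genes the difference ran from -1.87 (Ccl17) to -1.21 (Cxcl10), and Ccl9 and Cxcl10 were under 2-fold after normexp, at -0.87 and -0.82. Ccl5 differed by -0.06 and Cxcl9 by -0.06, so not every measured chemokine was lower by such an amount. Of 26 chemokine receptor and homing genes, 12 lay above 0 and 14 below, with a median of -0.04. Within that list the integrin chains diverged. Itga1, the collagen-binding alpha1 chain, had 7.28 and 5.79 (difference -1.49), whereas Itga4, the alpha4 chain of VLA-4, had 1.98 and 3.0 (difference 1.02, 0.93 after normexp) over 2 probes of 0.88 and 1.16.

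Type 1 effector genes were lower in the Rbpj KO in most measured members. The type 1 and cytotoxic effector list had 27 genes on the array and 21 measured, of which 17 lay below 0 and 7 were at least 2-fold lower (54.9% and 2.5% of all genes), with a median of -0.67 (-0.41 after normexp). None was 2-fold higher. Gzma, which encodes granzyme A, had levels of 2.42 in the Dll1 KO against -1.07 in the Rbpj KO, a difference of -3.49 (11.3-fold, and 6.44-fold after normexp), with 2.00 in the WT. Tbx21, the lineage factor T-bet, had 3.53 and 2.25, a difference of -1.28, with 3.29 in the WT. Nkg7, a cytotoxic granule protein, had 3.58 and 2.29 (-1.28, 2 probes of -1.42 and -1.15), Serpinb6b, a protease inhibitor, had 2.24 and 0.95 (-1.29), and Il12rb1, a chain of the IL-12 receptor, had 1.44 and 0.39 (-1.05, and -0.69 after normexp). The Rbpj KO array was the lowest of the 3 for each. Eomes, a T-box factor related to T-bet, differed by -0.87. Not all of the list was low. Prf1 (perforin) differed by -0.12 and Stat4 by -0.16, and Cxcr3 and Il18r1 were higher, by 0.70 and 0.69. Genes of the granzyme family are similar in sequence, and a probe may read more than 1 of them.

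Beside the cytotoxic genes, markers of other cells that express them were read. Of 16 NK cell markers on the array, 12 were measured, 9 lay below 0 and 7 were at least 2-fold lower (54.9% and 2.5% of all genes), with a median of -1.09 (-0.56 after normexp). Gzma and Nkg7, counted among the lower ones, and Prf1 are also on the type 1 and cytotoxic list above. The counts of these lists are therefore not separate. The receptor genes Klra8, Klra7, Klra4 and Klra1 differed by -1.36, -1.34, -1.16 and -1.02, and the adaptor Tyrobp by -1.35. After normexp Klra8, Klra7, Klra4 and Tyrobp were under 2-fold, at -0.59, -0.91, -0.53 and -0.76. Klrd1 and Klrb1c differed by 0.47 and 0.64. Klra genes are near-identical copies whose probes may share signal. Of the other markers on the list, Ncr1, Klre1, Klrk1 and Klrc1 were not well above background on either array. The summed level of the list was 9.42 in the Dll1 KO against 8.39 in the Rbpj KO, nearly all of it from Klra1 (9.36 and 8.33). All 6 CD8 T cell markers were measured, 4 lay below 0, and their summed level was 4.65 and 4.23. In a bulk sample, fewer cells of a type and less RNA per cell cannot be told apart, and the part of NK or CD8 cells in the cytotoxic difference was not tested.

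**Figure D2:**
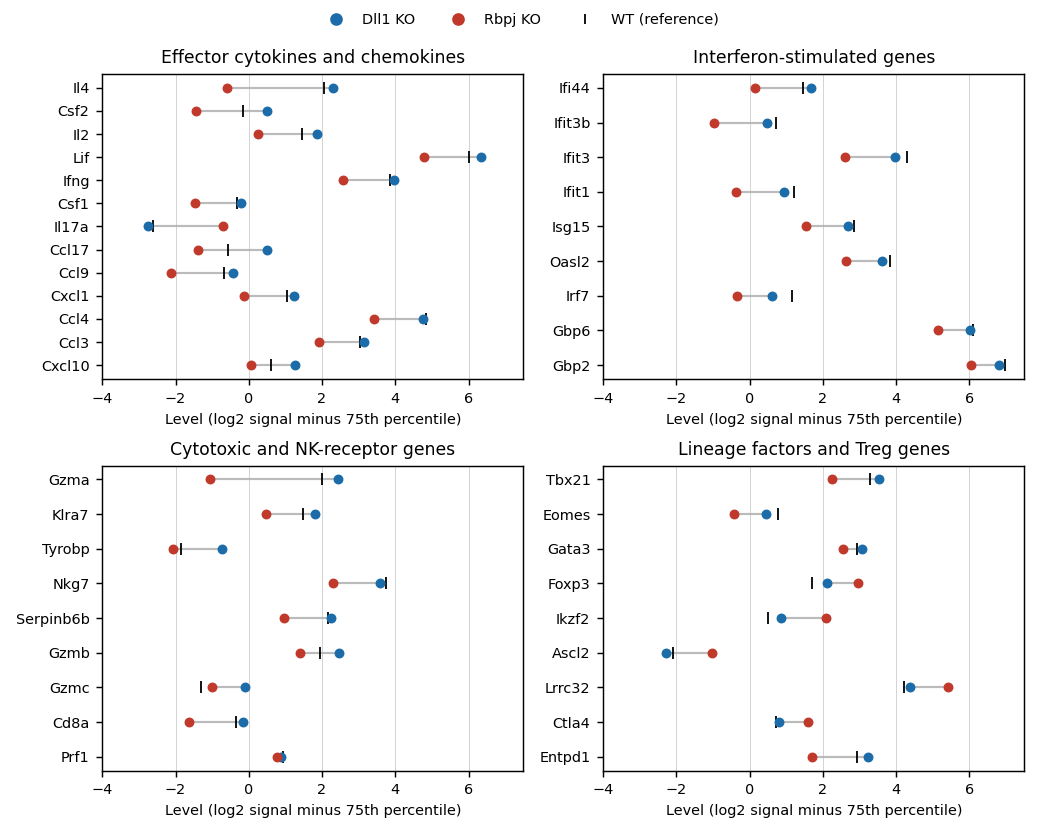
Levels of selected cytokine, chemokine, interferon-stimulated, cytotoxic and lineage genes (horizontal axis, log2 signal minus the array's 75th percentile) on the Dll1 KO array (blue), the Rbpj KO array (red) and, as a reference, the WT array (black tick, drawn only where well above background). For Il4, Gzma, Ifit3 and Tbx21 the Rbpj KO point lies left of the other arrays, whereas for Foxp3, Ikzf2 and Lrrc32 it lies right of them.

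Regulatory T cell genes ran the other way. All 22 on the array were measured, 17 lay above 0 (45.1% of all genes did) and 5 below, with a median of 0.38. That direction holds relative to other genes on the array, since the median was 0.26 with median scaling and -0.04 with spike-in scaling. Foxp3, the lineage factor of regulatory T cells, had levels of 2.10 in the Dll1 KO against 2.95 in the Rbpj KO, a difference of 0.85 (1.80-fold), with 1.70 in the WT. Ikzf2, which encodes Helios, had 0.85 and 2.09, a difference of 1.24 over 2 probes of 1.23 and 1.25, with 0.50 in the WT. Lrrc32 (GARP), which holds latent TGF-beta on the cell surface, had 4.36 and 5.40, a difference of 1.04, with 4.21 in the WT. Both were under 2-fold with spike-in scaling, at 0.82 and 0.62. Ctla4, an inhibitory receptor, differed by 0.81, Tigit by 0.61 and Il10 by 0.41. Entpd1, the ectonucleotidase CD39 that many regulatory T cells carry, was the opposite, with 3.22 and 1.71, a difference of -1.51. Il2ra, the high-affinity IL-2 receptor chain shared by activated and regulatory T cells, differed by -0.23.

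The remaining subset lists were less uniform. Of 20 measured follicular helper genes, 14 lay above 0, with a median of 0.15 (0.03 with median scaling and -0.27 with spike-in scaling). Ascl2, a follicular helper factor, had levels of -2.29 in the Dll1 KO against -1.04 in the Rbpj KO, a difference of 1.25 that was 0.52 after normexp, while Bcl6 differed by 0.08, Cxcr5 by 0.63, Tcf7 by 0.58 and Il21 by -0.49. Of 15 type 17 genes, 8 lay above 0, with a median of 0.06 (-0.36 with spike-in scaling and -0.06 with median scaling). Besides Il17a, the receptor Ccr6 had 1.88 and 2.84, a difference of 0.96. Rbpj is itself on that list. Of 13 measured type 2 genes, 7 lay above 0 and 6 below, with a median of 0.38 (-0.04 with spike-in scaling). A further 2 on the list, measured on the Dll1 KO array only, were at least 2-fold lower by bound, and none was higher by bound. The members split, since Il4 was the lowest at -2.89, Ccr4 and Il4ra differed by -1.08 and -0.97, and Pparg, a nuclear receptor of lipid metabolism used by type 2 cells, had -2.53 and -0.99, a difference of 1.54 (0.60 after normexp). The type 2 lineage factor Gata3 had 3.06 and 2.56. Zbtb16 (PLZF), a factor of innate-like T cells, had 2.15 and 0.71, a difference of -1.44, with 1.94 in the WT.

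Most interferon-stimulated genes were lower in the Rbpj KO. Of 46 on the array, 45 were measured, 41 lay below 0 and 4 above (54.9% of all genes lay below), with a median of -0.37 (-0.23 after normexp). In 5 the level was at least 2-fold lower (11.1%, against 2.5% of all genes) and in none 2-fold higher. Because these genes share a known promoter element, the interferon-stimulated response element (ISRE), promoter sequences were read for the members with an entry in the RefSeq promoter table (GRCm38.p6). The 200 bases before the start site are printed for Ifit1, Ifit3 and Isg15, which were at least 2-fold lower, and for Gbp2, a guanylate-binding protein, as examples that hold matches to the ISRE pattern (GAAA, any 2 bases, GAAA) on either strand, shown in capitals.
Ifit1, chr19:34640689-34640888, plus strand: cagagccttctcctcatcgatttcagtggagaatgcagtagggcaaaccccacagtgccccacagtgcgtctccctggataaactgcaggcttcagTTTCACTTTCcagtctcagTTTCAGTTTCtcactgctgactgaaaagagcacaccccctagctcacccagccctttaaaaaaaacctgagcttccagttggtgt
Ifit3, chr19:34583329-34583528, plus strand: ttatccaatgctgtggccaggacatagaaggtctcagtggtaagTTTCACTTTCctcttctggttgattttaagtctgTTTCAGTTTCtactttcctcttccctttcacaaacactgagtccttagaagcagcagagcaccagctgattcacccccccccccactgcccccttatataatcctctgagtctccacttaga
Isg15, chr4:156200819-156201018, minus strand: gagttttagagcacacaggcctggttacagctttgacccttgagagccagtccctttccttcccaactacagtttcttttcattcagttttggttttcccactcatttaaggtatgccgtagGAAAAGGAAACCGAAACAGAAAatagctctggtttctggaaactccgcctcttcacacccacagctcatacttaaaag
Gbp2, chr3:142620463-142620662, plus strand: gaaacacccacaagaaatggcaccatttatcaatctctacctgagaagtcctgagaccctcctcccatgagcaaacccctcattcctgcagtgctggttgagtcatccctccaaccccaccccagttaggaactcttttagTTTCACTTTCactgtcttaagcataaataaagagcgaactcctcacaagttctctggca

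These stretches show 2 matches each in Ifit1 and Ifit3, 3 overlapping matches in Isg15, which begin 78, 72 and 66 bases before the start, and 1 in Gbp2, which begins 59 bases before it. Over windows of 300 bases around the start site, the ISRE letters were found in 16 of 35 interferon-stimulated genes with a promoter entry (45.7%) and in 10 of 10 interferon-inducible GTPases, against 3.84% of the 9479 measured genes with an entry. Among genes at least 2-fold lower they were found in 8.66% (20 of 231) and among those at least 2-fold higher in 3.68% (5 of 136). Ifi44, Oasl2 and Irf7 held no match in the 200 bases before their starts. A match describes the letters only. In level, Ifi44 had 1.68 in the Dll1 KO against 0.14 in the Rbpj KO, a difference of -1.55, with 1.45 in the WT. Ifit3, an RNA-binding antiviral protein family member, had 3.97 and 2.60 (-1.38), with 4.31 in the WT, and Ifit1 had 0.93 and -0.37 (-1.31), with 1.21 in the WT. Ifit3b had 0.47 and -0.98 (-1.45) over 2 probes of -1.53 and -1.38, although near-identical Ifit3 copies may share signal. Isg15, a ubiquitin-like modifier, had 2.69 and 1.54 (-1.14) over 2 probes of -1.15 and -1.14, with 2.85 in the WT. In each of these the Rbpj KO array was the lowest of the 3, and Ifit1, Ifit3b and Isg15 were under 2-fold after normexp, at -0.95, -0.92 and -0.91.

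Members of the interferon group differed by unequal amounts. Oasl2, of the oligoadenylate synthetase family, differed by -0.99, the interferon regulatory factor Irf7 by -0.96 and the transcription factor Stat2 by -0.76, whereas Irf9 differed by -0.16 and Ifih1, a sensor of viral RNA, by 0.08. Of the 16 interferon-inducible GTPases, all measured, 13 lay below 0 and none was 2-fold apart, with a median of -0.34. Gbp6 had levels of 6.02 in the Dll1 KO against 5.15 in the Rbpj KO (-0.88, 2 probes of -1.25 and -0.50), Gbp2 had 6.82 and 6.04 (-0.78) and Igtp had 7.56 and 7.04 (-0.52). Of 25 antigen presentation genes, all measured, 22 lay below 0, with a median of -0.31. The 2 members at least 2-fold lower (2.5% of all genes were) were H2-DMa and H2-DMb1, which serve class II loading. H2-DMa had 2.75 and 0.82, a difference of -1.93, and H2-DMb1 had 2.64 and 1.42, a difference of -1.22 (-0.98 after normexp). The class II chains H2-Eb1, H2-Ab1 and H2-Aa differed by -0.63, -0.55 and -0.49. Other class II genes were less low, with H2-Oa at -0.33, or higher, with H2-Ob at 0.77 and H2-Eb2 at 0.33. Ciita, the class II transactivator, was higher, with -1.98 and -0.25, a difference of 1.73 (0.86 after normexp). Class I genes were close, with H2-K1 at -0.12, H2-D1 at -0.13 and B2m at -0.02.

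Class II genes are made by B cells and dendritic cells, so their markers were read beside this result. Of 18 B cell and plasma cell markers on the array, 14 were measured and 8 lay below 0, with a median of -0.23. Cd79b had levels of 3.41 in the Dll1 KO against 2.88 in the Rbpj KO and Ms4a1 (CD20) had 2.50 and 1.75, so B cell transcripts were measured on both arrays. Jchain, Fcrla and Cd79a were higher, by 2.34, 1.52 and 1.13, from Dll1 KO levels of -3.29, -2.87 and -3.17, and all were under 2-fold after normexp. Sdc1, Pax5 and Ebf1 were well above background on the Dll1 KO array only. By bound, 1 marker of this list was at least 2-fold lower and none was higher. The summed level was 5.10 and 4.80. Of 20 dendritic cell markers, 11 were measured and 9 lay below 0, with a median of -0.55, while Itgax, Flt3, Zbtb46, Xcr1 and Clec9a were not well above background on either array. Cd209a and Batf3 were well above it on the Dll1 KO array only, and by bound 1 marker was at least 2-fold lower and none higher. The summed level of the measured dendritic cell markers was 9.50 and 9.44, nearly all from Siglech. The dendritic cell list includes H2-Aa, H2-Ab1, H2-Eb1, H2-DMb1, Ciita and Ccl17, all given above. Its counts and median are therefore not separate from the class II and chemokine results. Of 19 macrophage markers 7 were measured, with a median of 0.17 (-0.25 with spike-in scaling) and summed levels of 4.78 and 4.79, and Cd14, Adgre1 and C1qa were not well above background. S100a8 and S100a9, the calprotectin genes of neutrophils, were higher by 2.04 and 2.00, from -3.27 to -1.23 and from -1.37 to 0.63, and were 0.72 and 1.36 after normexp, while Csf3r differed by -0.11 and Ltf, Ngp, Retnlg and Cxcr2 were not well above background. The neutrophil and mast cell list had a median of 0.33 over 6 measured genes, and so did the stromal list, and both became -0.09 with spike-in scaling. The part of these cell types in the differences was not tested.

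Sequences of chemokine promoters were read in the same way, for an NF-kB pattern (GGG, any 3 bases, TTCC, on either strand). It was found in 4 of 9 measured chemokine genes with an entry, against 7.54% of all measured genes. Among genes at least 2-fold lower the share was 8.66%, and among those at least 2-fold higher it was 8.82%. Of the genes named above, Ccl3 and Ccl17 held none in the 200 bases before the start. Cxcl1, 2.59-fold lower, is printed as an example with its matches in capitals.
Cxcl1, chr5:90891045-90891244, plus strand: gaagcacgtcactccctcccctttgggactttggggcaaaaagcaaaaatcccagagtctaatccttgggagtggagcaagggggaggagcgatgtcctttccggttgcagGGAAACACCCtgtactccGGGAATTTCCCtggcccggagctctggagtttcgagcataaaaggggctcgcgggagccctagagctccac

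The matches begin 89, 71 and 70 bases before the start, and the last 2 overlap on opposite strands. The AP-1 pattern TGANTCA was found in 13.4% of the genes at least 2-fold lower, 8.09% of those at least 2-fold higher and 6.30% of all measured genes. The Rbpj core TGGGAA was found in 28.6% of the genes at least 2-fold lower, 34.6% of those at least 2-fold higher and 26.5% of all measured genes, with both strands searched. In the 200 bases before the start, Tbx21, Rbpjl and Il17a held 1 match each, and Dtx1, Il4, Gzma, Ifng, Bcl2, Gzmb, Dll4, Esm1 and Foxp3 held none. The NF-kB and Rbpj letters can overlap, since both can hold GGGAA. These shares describe short windows at annotated starts and say nothing of binding.

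Signalling genes downstream of the T cell receptor and IL-2 were lower in part. The receptor complex and its proximal kinases were close, with 27 genes measured, 14 above 0, 13 below, none 2-fold apart and a median of 0.00 (-0.41 with spike-in scaling and -0.12 with median scaling). Of 33 measured activation genes, 27 lay below 0 (54.9% of all genes did), with a median of -0.40. The 3 at least 2-fold lower (9.09%, against 2.5% of all genes) were the cytokines Csf2, Il2 and Ifng, already counted above. Among the immediate early factors, Jun had levels of 5.58 in the Dll1 KO against 4.66 in the Rbpj KO, Egr1 had 4.29 and 3.43 and Nr4a3 had 0.20 and -0.70, differences of -0.92, -0.86 and -0.90. The early activation marker Cd69 had 3.42 and 2.72. Of 22 measured IL-2 and STAT5 response genes, 17 lay below 0 and 6 were at least 2-fold lower (54.9% and 2.5% of all genes), with a median of -0.38. The lowest was Lif at -1.56, given with the cytokines above, so the counts of these lists are not separate. Cish, a STAT5-induced inhibitor of cytokine signalling, had 4.43 and 3.32 (-1.11), and Socs1, of the same family, had 5.59 and 4.49 (-1.11, -0.93 after normexp). Cdc6, which licenses replication origins, had -0.28 and -1.35 (-1.06, -0.56 after normexp). Stat5a itself differed by -0.82, whereas Pim1, Pim2 and Prdm1 differed by 0.10, -0.01 and 0.25.

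Brakes on T cell signalling were mixed. Of 31 measured, 13 lay above 0 and 18 below, and 5 were at least 2-fold lower (2.5% of all genes were), with a median of -0.15 that was 0.01 in rows 193 to 384. Besides Cish and Socs1, the MAP kinase phosphatase gene Dusp10 had levels of 2.19 in the Dll1 KO against 0.72 in the Rbpj KO (-1.47). Rgs16, which dampens G protein signalling, had 4.19 and 2.78 (-1.42), and the receptor Cd160 had -1.77 and -3.10 (-1.33, -0.43 after normexp). Cd200r1, an inhibitory receptor, differed by 0.94 and Pdcd1 (PD-1) by 0.10. Tnfsf14 (LIGHT), a costimulatory ligand, had 2.08 and 0.90, a difference of -1.18 (-0.87 after normexp), and Cd28 differed by 0.46.

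Proliferation genes differed by small amounts in one direction. Of 44 measured DNA replication genes, 42 lay below 0, with a median of -0.42, but only Cdc6 was 2-fold apart (2.27% of the list, against 3.94% of all genes). Ung, a uracil-DNA glycosylase, differed by -0.97, the replication factor Mcm10 by -0.73 and the ribonucleotide reductase subunit Rrm1 by -0.64. Of 36 measured mitosis genes, 32 lay below 0 and none was 2-fold apart, with a median of -0.36. The spindle factor Tpx2 differed by -0.79, topoisomerase Top2a by -0.74 and the phosphatase gene Cdc25b by 0.83. Of 44 genes for ribosome biogenesis and other Myc targets, 43 lay below 0, with a median of -0.33, and Nop56 and Nolc1, both nucleolar proteins, differed by -0.56 each, over 2 probes. Of the cytosolic ribosomal proteins, 53 of 75 lay above 0, with a median of 0.04 (-0.38 with spike-in scaling and -0.09 with median scaling). Amino acid stress genes (22 of 27 below 0, median -0.28), sterol and fatty acid synthesis genes (27 of 30, -0.24) and heat shock proteins (20 of 24, -0.25) lay between. Atf3, a stress-induced factor, had levels of -0.18 and -1.96, a difference of -1.78. Glycolysis (17 of 28, median -0.09) and respiratory chain genes (34 of 40, median -0.08) were near the all-gene median of -0.03. Uqcrb, a complex III subunit, had 7.26 and 6.17, a difference of -1.10 (-0.97 after normexp) over 3 probes from -1.35 to -0.93.

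**Figure D3:**
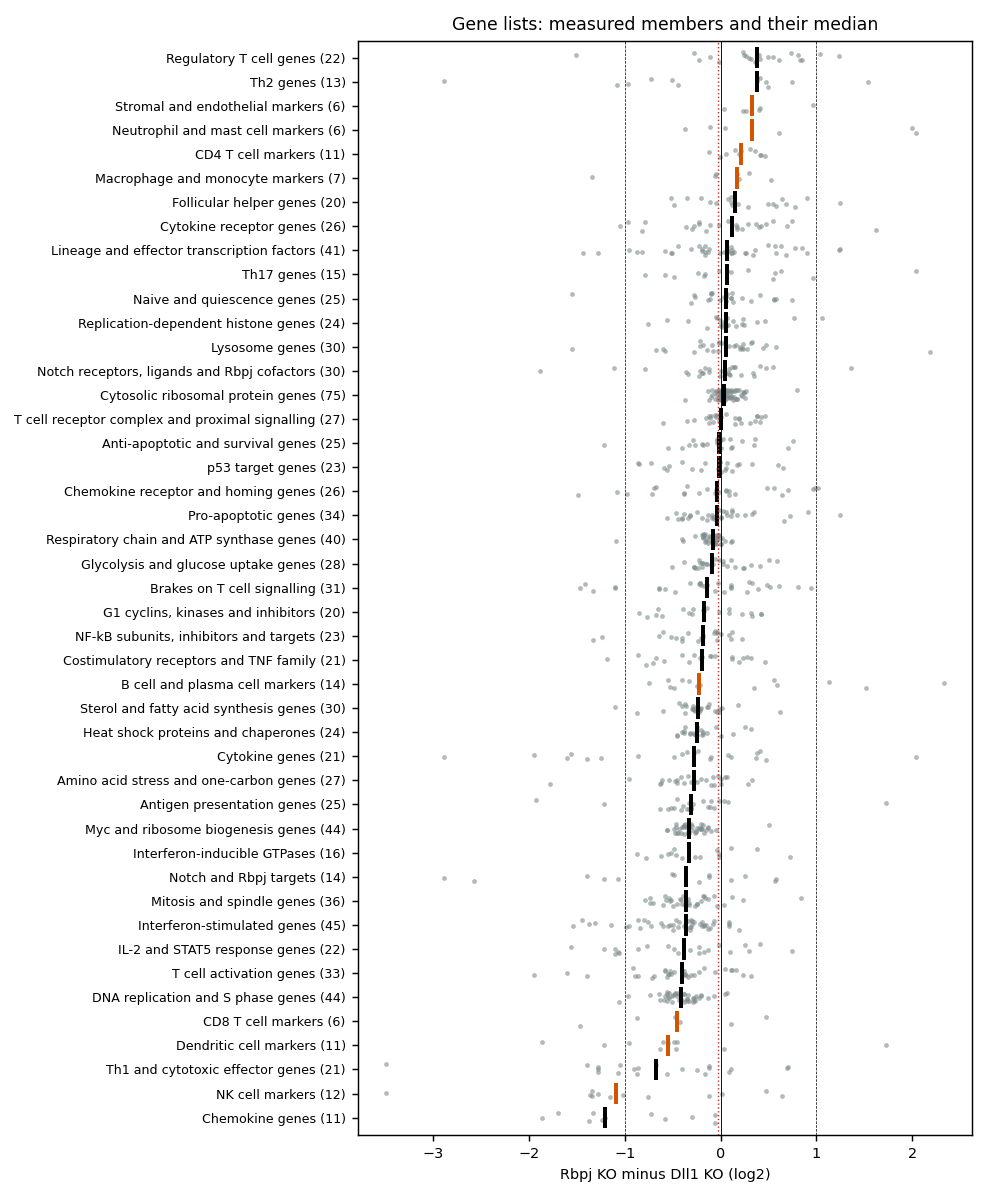
Difference Rbpj KO minus Dll1 KO (log2, horizontal axis) for the measured members (grey points) of each gene list with at least 5 of them, with the number measured in brackets and the median as a bar (black for pathway lists, orange for cell type markers). The dotted red line is the all-gene median of -0.03 and the dashed lines mark 2-fold; chemokine genes lie at the bottom with a median of -1.21 and regulatory T cell genes at the top with 0.38.

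Survival is the subject named in the title of the series. Of 25 measured anti-apoptotic genes, 10 lay above 0 and 15 below, with a median of -0.01, and Bcl2 (levels given above, -1.22) was the only one at least 2-fold apart (4% of the list, against 3.94% of all genes). Bcl2l1, which encodes Bcl-xL, differed by -0.55, although its 2 probes differed by -1.07 and -0.04. Mcl1 differed by -0.33 over 2 probes of -0.36 and -0.31. Of 34 measured pro-apoptotic genes, 16 lay above 0 and 18 below, with a median of -0.04, and 1 was at least 2-fold apart (2.94%). That gene, Pdcd4, a translation inhibitor induced in dying cells, had levels of 5.83 in the Dll1 KO against 7.07 in the Rbpj KO, a difference of 1.24 (0.83 with spike-in scaling), with 6.34 in the WT. Bmf, a BH3-only killer protein, differed by 0.91, Casp1 by 0.72 and Casp4 by 0.66, whereas Bax and Bcl2l11 (Bim) differed by -0.56 and -0.47. Of 23 p53 target genes, 14 lay below 0 with a median of -0.02, and Phlda3 and Cdkn1a (p21) differed by -0.87 and -0.86.

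The remaining lists lay near the all-gene median, with medians of -0.19 for NF-kB genes (18 of 23 below 0) and costimulatory receptors (14 of 21), -0.18 for G1 cyclins and inhibitors (13 of 20), 0.05 for lysosome genes, 0.06 for histones, naive cell genes and lineage factors, and 0.12 for cytokine receptors. Those with a positive median became negative with spike-in scaling, at -0.37, -0.36, -0.36, -0.36 and -0.30, and with median scaling, at -0.07, -0.07, -0.06, -0.06 and -0.01. Single members stood further out. Il1r2, a decoy receptor for IL-1, had levels of -0.95 in the Dll1 KO against 0.67 in the Rbpj KO, a difference of 1.62. Hexa, a lysosomal hexosaminidase subunit, had 4.23 and 2.67, a difference of -1.56, and Igfbp4, which binds insulin-like growth factors and is high in naive T cells, had 5.62 and 4.06, a difference of -1.56. The histone gene H2bc4 differed by 1.06 (0.59 after normexp).

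The largest differences fell on genes of varied function, most of them read by 1 probe. En2, a homeobox gene of the developing brain, had levels of 0.85 in the Dll1 KO against -2.70 in the Rbpj KO, a difference of -3.54, with 0.74 in the WT. Pros1, the anticoagulant protein S, had 1.69 and -0.94 (-2.63), with 1.83 in the WT. Fgd2, an exchange factor for Cdc42, had 0.11 and -2.49 (-2.61) and Eml5, a microtubule-associated protein, had 0.30 and -2.37 (-2.67). For these last genes the WT levels were -1.68 and -1.82, nearer the Rbpj KO, so the Dll1 KO array was the high one. Gbx2, Olfr553, Fam3b, Actg2 and Dkk3 completed the lower side with differences from -2.28 to -1.96, and Speg, Dusp22 and Ttr lay between -1.93 and -1.87. After normexp Actg2, Dkk3 and Ttr were under 2-fold, at -0.74, -0.64 and -0.77, and En2, Eml5 and Fgd2 were at -1.88, -1.35 and -1.40.

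On the higher side, Esm1, which encodes the secreted proteoglycan endocan, had levels of -2.13 in the Dll1 KO against 2.15 in the Rbpj KO, a difference of 4.28 (19.4-fold, and 7.77-fold after normexp), with -2.32 in the WT. Cpne7, a copine, had 1.64 and 4.09 (2.46), with 1.38 in the WT, and Lgmn, the lysosomal asparaginyl endopeptidase, had 0.84 and 3.03 (2.19), with 0.99 in the WT. In these genes only the Rbpj KO array was high. Dnase1l2, a deoxyribonuclease, was different, with -1.85 and 1.64 (3.49, 11.3-fold, and 4.55-fold after normexp) and 1.19 in the WT, so the Dll1 KO array was the low one. Lalba, a milk protein, differed by 2.55, and Stfa3, Hspa2, Hcfc2, Iglon5, Eps8l1, Jchain, Serpina10, Car2, Apol9b, Ces2b and Slc24a3 differed by 2.08 to 2.89, from Dll1 KO levels of -3.34 to -2.38. After normexp these 11 differed by 0.70 to 1.22, and Iglon5, Eps8l1, Jchain, Car2 and Slc24a3 were under 2-fold. Among the 1117 genes measured on 1 array only, the bounds put 140 higher and 98 lower in the Rbpj KO by 2-fold or more. The rest did not reach 2-fold. The largest were Olfr550 (at least 14.3-fold higher), Olfr455 (11.4), Ceacam14 (10.9) and Rbakdn (10.6), and, lower, Krt5 (at least 17.1-fold), Avpr1a (7.87), Il3 (given above) and Olfr1122 (5.67).

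**Figure D4:**
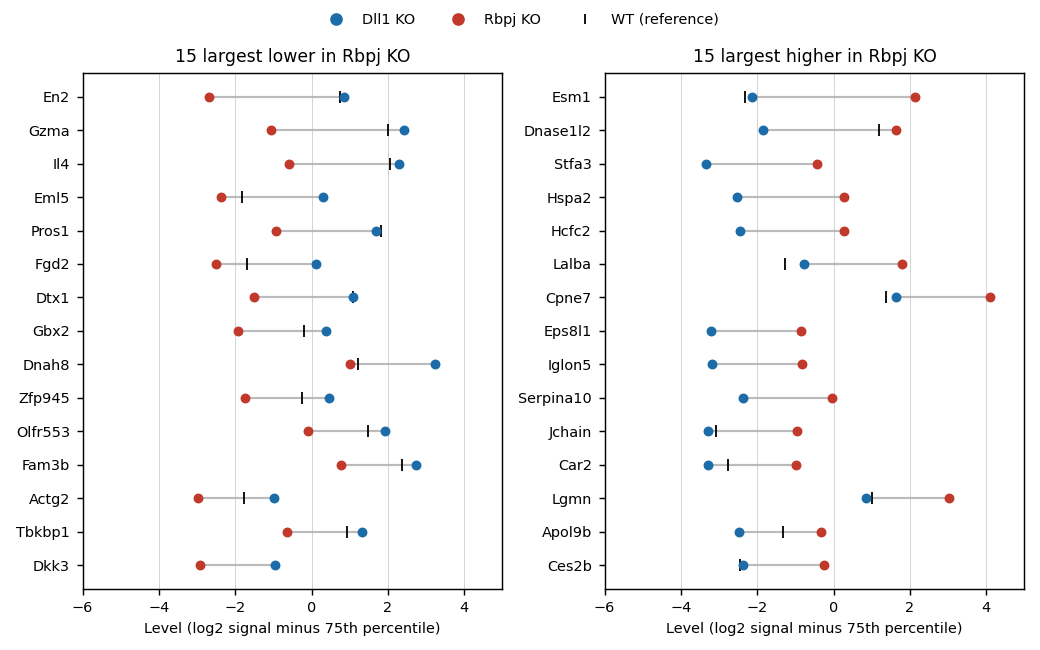
Levels (horizontal axis, log2 signal minus the array's 75th percentile) of the 15 genes with the largest difference each way on the Dll1 KO array (blue), the Rbpj KO array (red) and, as a reference, the WT array (black tick, drawn only where well above background). In Esm1, Cpne7 and Lgmn the WT tick lies beside the Dll1 KO point, whereas in Dnase1l2, Dnah8, Eml5 and Fgd2 it lies nearer the Rbpj KO point.

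The number of probes bears on how far a single gene can be read. Of the 465 genes, 420 rested on 1 probe, and the share at least 2-fold apart was 4.72% of 8890 genes with 1 probe and 1.55% of 2902 genes with several. In 41 of the 45 called genes with several probes, every probe was at least 1.5-fold apart in the gene's direction (22 higher and 19 lower). Among these, Dnah8, an axonemal dynein chain, had levels of 3.24 in the Dll1 KO against 1.01 in the Rbpj KO over 3 probes of -2.50 to -1.91. Its WT level of 1.22 lay nearer the Rbpj KO, so the Dll1 KO array was the high one. Tbkbp1, an adaptor of the kinase TBK1, had 1.33 and -0.65 over 2 probes of -1.99 and -1.97. S100a4, a calcium-binding protein of memory and motile cells, had 3.0 and 4.08 over 2 probes of 1.08 and 1.09, and Ramp1, a receptor activity-modifying protein, had -0.54 and 0.75 over 2 probes of 1.28 and 1.30 (0.94 after normexp). In 10 of the 2902 genes the probes disagreed, with at least 1.5-fold in each direction. By position on the array, genes with all probes in rows 1 to 192 were at least 2-fold apart in 4.91% of 4971, and genes with all probes in rows 193 to 384 in 3.67% of 5043.

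Genes were also read by their order along the chromosomes of the targeted genes. By gene order on chromosome 17 in the RefSeq table, 11 of 68 measured genes (16.2%) among the 200 on either side of Dll1 were at least 2-fold apart, 4 higher and 7 lower. The share was 8.74% of 103 in the next 200 on either side, 6.17% of 81 in the following 200, and 2.16% of 370 on the rest of the chromosome. Around Rbpj on chromosome 5 the corresponding shares were 4.05% of 74, 3.57% of 112, 6.33% of 79 and 2.77% of 470. Over all chromosomes the share ran from 2.16% (chromosome 15) to 6.16% (chromosome 1), with 5.31% for chromosome 17. Several of the 11 genes near Dll1 encode zinc finger proteins. Zfp945 had levels of 0.46 in the Dll1 KO against -1.75 in the Rbpj KO over 3 probes of -2.47 to -1.78, Zfp948 had -0.70 and 1.21, and Zfp52 had 0.64 and 2.26. Their WT levels of -0.25, 0.04 and 1.32 lay between the knockouts. Acat2 and Acat3, acetyl-CoA acetyltransferases with similar sequences, differed by -1.11 and -1.17 (-0.90 and -0.88 after normexp), and Zfp820 by -1.21 (-0.59 after normexp). Dnase1l2, Fgd2 and Dnah8 lie on the same chromosome, 286, 529 and 555 genes from Dll1. Near Rbpj the members at least 2-fold apart were Sod3, an extracellular superoxide dismutase (3.01 and 1.22, -1.80), Rell1 (1.80 and 0.18, -1.61) and Yipf7 (0.21 and -1.37, -1.58, -0.90 after normexp). The labels give C57BL/6 as the strain of all 3 groups.

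**Figure D5:**
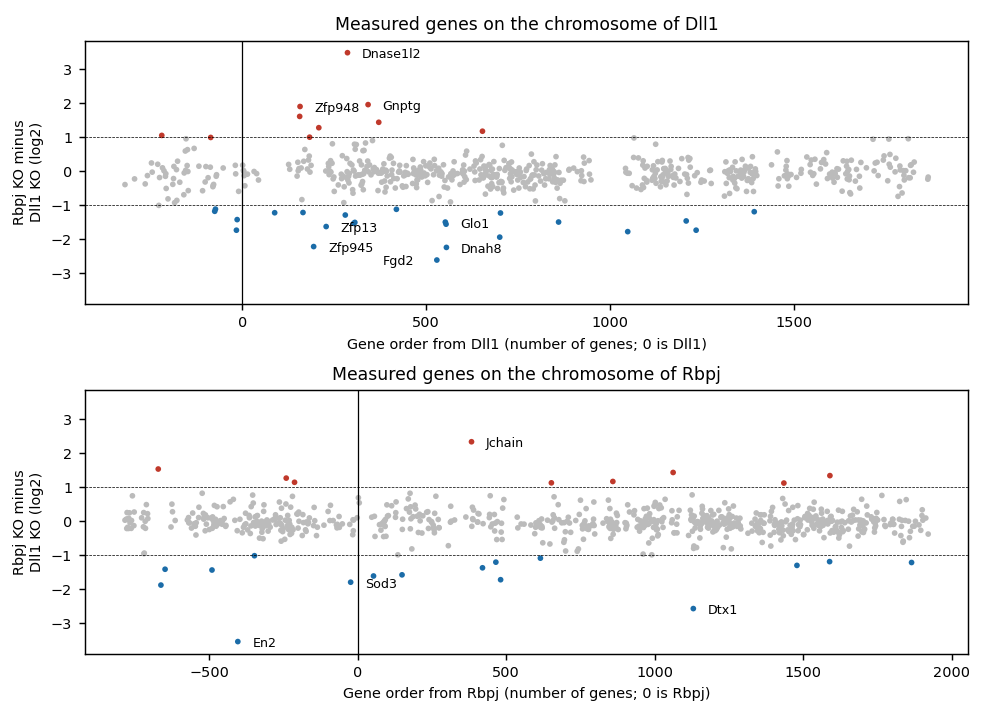
Difference Rbpj KO minus Dll1 KO (log2, vertical axis) for measured genes on the chromosomes of Dll1 (top) and Rbpj (bottom), placed by gene order counted from the targeted gene (horizontal axis). Red and blue points are at least 2-fold higher and lower. Near Dll1 they make up 11 of the 68 genes within 200 places. They make up 9 of 103 in the next 200 on either side and 5 of 81 in the following 200. On the rest of its chromosome, beyond these, they make up 8 of 370.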

How the data were processed

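The authors deposited 1 scanner file per array, whose processed signal, a linear intensity, had its background subtracted and a spatial trend removed by Feature Extraction 10.7.1.1, per the file headers (10.7 per the labels). The deposited series table holds log2 values of the same arrays, within 0.01 of the log2 processed signal plus a constant for 99.8% of probes, with column medians of -3.44 (WT), -3.40 (Dll1 KO) and -3.28 (Rbpj KO). The direction follows the signal, and the basis of each constant is unknown. The 3 arrays share 1 slide and 1 scan, per the file headers.

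Control and outlier spots (163 for the Dll1 KO, 139 for the Rbpj KO) were left out, no spot was saturated, and spots of one probe were averaged on the log2 scale after subtracting the array's 75th percentile (7.28 and 7.14), which gave 55678 probes. Of these, 27906 and 26316 were well above background. Through accessions and RefSeq's GRCm38.p6 gene table, 27501 probes (49.4%) were matched to 20882 genes. Since the file headers name mm9 for the design, that table gave names and gene order only. Each gene's difference averages those of its probes that passed the background test on both arrays. The number of arrays limits the precision.

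As no mean signal column was used here, the normexp alternative (offset 50, limma 3.58.1 in R 4.3.3, followed by quantile normalization) took the median spot and background intensities the authors deposited. The other alternatives were median, spike-in and loess scaling, keeping or dropping dim probes, each part of the rows, the brightest probe, and the authors' deposited table. The scripts were tested on simulated data.

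Genes are named by rule: the targeted genes and Cd4, Cd3e and Cd8a; the 15 largest differences each way that reach 1.5-fold with the same sign after normexp; the 8 largest each way among genes in rows 193 to 384; the 4 largest bounds each way; up to 6 members of each list at least 2-fold apart, or the 2 largest; and every measured member of the Notch lists. Clone and predicted names were left out. Other list members and the genes with agreeing probes are named as examples chosen after their values were seen. The comparison, the 46 lists and their genes were chosen with earlier results of these data known. A few list members are not reported here.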

Additional observations from a re-analysis of the deposited data

How the results depend on the processing

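The count of genes at least 2-fold apart (465, with 170 higher and 295 lower in the Rbpj KO) depended on the processing. It was 198 (56 and 142) with normexp and quantile normalization, 777 (61 and 716) with spike-in scaling, 1068 (436 and 632 of 12915 genes) when probes dim on 1 array were kept, 298 (80 and 218 of 9157) with brighter probes only, 304 (119 and 185 of 6749) in rows 1 to 192 and 235 (81 and 154 of 6820) in rows 193 to 384. The last 4 tested other numbers of genes. Spike-in scaling moved the difference of every gene by the same amount, to an all-gene median of -0.45. For normexp the cause was not tested. Median scaling gave 505 (25.3% higher, against 36.6% in the main setting and 7.85% with spike-in scaling), loess 451, the brightest probe 510 and 465 again with the values the authors deposited. Of the named genes, 43 at least 2-fold apart fell under 2-fold after normexp, 8 with spike-in scaling and 3 with median scaling, and no named gene turned its direction while called. The genes named for the largest differences had to keep their sign after normexp. Their direction under that setting was therefore fixed by the naming rule. Of the lists whose median lay at least 0.2 from the all-gene median, that of type 2 helper genes turned its direction relative to it and was -0.42 with brighter probes only and -0.035 in rows 1 to 192, over 10 genes each. Of the lists nearer than 0.2, 11 changed sign under at least 1 alternative, among them cytokine receptors (0.15, and -0.12 in rows 193 to 384), brakes (-0.12 and 0.05 there) and respiratory chain genes (-0.05, and 0.02 after normexp). No replicate could be left out and no spread between samples estimated, since each group is 1 array. No paired analysis was possible because each group has 1 array and no test was made. Signal over background limits the low end: a signal under 13.6 in the Dll1 KO or 15.8 in the Rbpj KO was never well above background.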

Other observations

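Probes that could not be matched to a gene were counted too. Of 28177 such probes, 10076 were measured on both arrays, and 192 differed by 2-fold or more upward and 370 downward in the Rbpj KO. Of the 11792 matched genes, 170 (1.44%) and 295 (2.5%) did, and among genes with 1 probe 4.72% differed in either direction. A count of probes and a count of genes are unlike units.

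Some genes best known from other tissues gave strong signals on all 3 arrays and were lower in the Rbpj KO, each by 1 probe. They were chosen after their values were seen. St6galnac1, a sialyltransferase of mucin-type glycans, had levels of 10.1 in the Dll1 KO against 9.04 in the Rbpj KO, with 9.71 in the WT. Ddx25, a testis RNA helicase, had 9.94 and 8.88, with 9.53 in the WT. Tdgf1, a Nodal coreceptor of early embryos, had 9.58 and 8.54, Mrgprg, a sensory neuron receptor, had 9.03 and 7.75, and Mapt, the neuronal protein tau, had 7.24 and 5.70. Pgr, the progesterone receptor, had 3.36 and 1.72. What these probes bind was not tested. The differences ranged from -1.64 (Pgr) to -1.04 (Tdgf1).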
